A study of Mus musculus with 8 samples.

Results

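The genes described here are the 13 protein-coding genes of mouse mitochondrial DNA. They were chosen by name alone, as every gene of the deposited transcript tables whose symbol begins with mt-. This gave 13 of 31165 genes. All are protein coding, and no member is an rRNA or a tRNA of the mitochondrion, so those molecules were not analysed here. The set was taken up because its summed share of the reads was known to differ between groups of these same libraries. Its levels and fold changes are therefore given as a description, without p-values.

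The hearts came from male C57BL/6 mice of 8 to 12 weeks. In the infarct groups the left anterior descending coronary artery was ligated, which causes a myocardial infarction (MI), and the ischemic free wall of the left ventricle was taken 1 day or 3 days later. In the sham groups the artery was not ligated, and the same wall was taken at the same 2 times. Each of the 4 groups held 2 mice, 1 library each, and no group carried a transgene or drug per the labels. Column order names the mice of each group, A for the first and B for the second, since the columns carry no replicate number. The RNA was total RNA depleted of rRNA, from whole tissue with all its cell types.

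Mitochondrial DNA is a small circle that is present in many copies in each cell. It is transcribed from both strands by a dedicated polymerase into long precursors, which are cut, mostly at tRNAs, into separate messages. Each message encodes a hydrophobic core subunit of the respiratory chain or of ATP synthase, and the remaining subunits come from nuclear genes. Heart muscle is packed with mitochondria, and these messages are among its most abundant RNAs.

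The 13 genes lie on chromosome MT of GRCm38.p6, the assembly of mm10, at the positions that RefSeq gives, and each is a single uninterrupted stretch. Of the 13 genes, 12 are read from one strand, from mt-Nd1 (MT 2751 to 3707) to mt-Cytb (MT 14145 to 15288). Only mt-Nd6 (MT 13552 to 14070) is read from the other. Of the 13, 7 encode subunits of complex I (NADH dehydrogenase), 1 encodes cytochrome b of complex III, 3 encode subunits of complex IV (cytochrome c oxidase) and 2 encode subunits of ATP synthase.

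Some genes share bases, which matters for how reads can be assigned to them. The sequences below show the 3 longest overlaps, read 5′ to 3′ on each gene's own strand, with the shared bases in capitals. They come from GENCODE M1 transcripts of build NCBIM37, which matched all 13 members by identifier and by length.
mt-Atp8, 3′ end: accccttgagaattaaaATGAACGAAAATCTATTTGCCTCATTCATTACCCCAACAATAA
mt-Atp6, 5′ end: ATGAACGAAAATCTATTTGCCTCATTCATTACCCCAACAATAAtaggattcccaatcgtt
mt-Nd4l, 3′ end: aatctcaacctactacaATGCTAA
mt-Nd4, 5′ end: ATGCTAAaaattattcttccctca
mt-Nd5, 3′ end: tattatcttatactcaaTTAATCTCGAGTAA
mt-Nd6, 3′ end: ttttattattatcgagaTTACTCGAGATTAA
The coding stretches of mt-Atp8 and mt-Atp6 share 43 bases (MT 7927 to 7969), those of mt-Nd4l and mt-Nd4 share 7 (MT 10167 to 10173), and the ends of mt-Nd5 and mt-Nd6 share 14 (MT 13552 to 13565). The first pairs lie on one strand, and each is carried on a common message. The genes mt-Nd5 and mt-Nd6 face each other, so their shared bases are reverse complements. mt-Atp6 and mt-Co3 share 1 base. The sources used here do not give the strand setting of the counting or how reads on shared bases were assigned. The values of mt-Nd6 can therefore include RNA of the opposite strand, whose transcripts run through the mt-Nd6 region, and reads of the 2 strands cannot be told apart.

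The transcript tables held 8.55 to 13.27 × 10⁶ reads per library. The 13 members took 1.73 to 3.71 × 10⁶ of them in 6 libraries and 0.849 and 0.556 × 10⁶ in the MI libraries at 3 days. The nuclear genes, which served as the measure of depth, took 4.85 and 6.39 × 10⁶ reads in the MI libraries at 1 day and 9.31 to 12.7 × 10⁶ in the others. All levels below are reads per 10⁶ nuclear reads (RPM-n), after scaling of the nuclear reads by the TMM method. A difference between groups is a log2 fold change of MI over sham with its standard error (SE). In whole tissue, fewer cells of a type and less RNA per cell cannot be told apart.

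All 13 genes together stood at 204108 and 184173 RPM-n in the 2 sham libraries at 1 day, and at 417283 and 859977 in the MI libraries. At 3 days they stood at 197885 and 197319 RPM-n after sham surgery and at 54942 and 34090 after MI. The MI libraries were thus above the sham libraries at 1 day and below them at 3 days. The 4 sham libraries of both days lay between 184173 and 204108 RPM-n. Below, the genes follow the complexes that their proteins belong to.

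Complex IV supplied the most abundant message. mt-Co1, the catalytic subunit of cytochrome c oxidase that holds the site of oxygen reduction, stood at 126214 and 101889 RPM-n in the sham libraries at 1 day and at 204572 and 387610 in the MI libraries. At 3 days it stood at 106556 and 103520 RPM-n after sham surgery and at 28528 and 17594 after MI. Both MI libraries were above both sham libraries at 1 day and below both at 3 days, with log2 fold changes of 1.38 (SE 0.36) and −2.19 (SE 0.37).

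mt-Co2, the subunit that takes up electrons from cytochrome c, was at 7561 and 10545 RPM-n after sham surgery and 17540 and 55847 after MI at 1 day, a log2 fold change of 2.02 (SE 0.46). At 3 days the values were 8795 and 10366 against 1916 and 1431 RPM-n, a log2 fold change of −2.52 (SE 0.47). This was the deepest drop among the 13 at 3 days. mt-Co3, the other core subunit, was at 22770 and 20363 RPM-n against 33470 and 85548 at 1 day, and at 21973 and 19267 against 6115 and 4869 at 3 days. Its log2 fold changes were 1.46 (SE 0.38) and −1.91 (SE 0.39). The groups did not overlap for either gene on either day, but MI library B at 1 day held 3.18 times as much mt-Co2 as MI library A.

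The 2 ATP synthase genes, which share a message, kept close company. mt-Atp6, part of the channel through which protons pass the membrane, was at 9558 and 10806 RPM-n in the sham libraries and 31922 and 69219 in the MI libraries at 1 day, a log2 fold change of 2.31 (SE 0.38). At 3 days it was at 12573 and 13758 against 3304 and 1933 RPM-n, a log2 fold change of −2.33 (SE 0.38). mt-Atp8, a short subunit that helps to assemble the enzyme, was at 1581 and 1705 against 5609 and 12879 RPM-n at 1 day and at 1951 and 2480 against 621 and 307 at 3 days. Its log2 fold changes were 2.49 (SE 0.43) and −2.26 (SE 0.42). Per length, mt-Atp8 stood at 0.518 to 0.627 times the level of mt-Atp6 in the 8 libraries, the narrowest span of the ratios examined here. Both lie on a common message.

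mt-Cytb, cytochrome b, is the only complex III subunit that mitochondrial DNA encodes and passes electrons from ubiquinol within the complex. It was at 6158 and 7265 RPM-n after sham surgery and 24476 and 47024 after MI at 1 day. At 3 days it was at 8365 and 10056 against 2679 and 1496 RPM-n. The log2 fold changes, 2.41 (SE 0.37) and −2.14 (SE 0.36), lay near the middle of the 13.

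The complex I messages spanned the whole range of the day-1 response. mt-Nd6 had the highest log2 fold change at 1 day, 2.67 (SE 0.34), from 1313 and 1335 RPM-n in the sham libraries to 6261 and 10627 in the MI libraries. At 3 days mt-Nd6 was at 1816 and 1630 against 612 and 321 RPM-n, a log2 fold change of −1.89 (SE 0.33). mt-Nd3 had the lowest at 1 day, 1.30 (SE 0.31), with 1289 and 861 RPM-n after sham surgery and 2492 and 2786 after MI. At 3 days mt-Nd3 was at 1350 and 1259 against 526 and 270 RPM-n, a log2 fold change of −1.71 (SE 0.31), the smallest drop of the 13. Both genes encode membrane subunits of complex I.

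mt-Nd4l and mt-Nd4, which share a message and encode neighbouring membrane subunits, each had a log2 fold change of 2.50 at 1 day (SE 0.35 and 0.40). mt-Nd4 was at 5509 and 7242 against 23089 and 49169 RPM-n at 1 day and at 8839 and 8745 against 2831 and 1514 at 3 days. mt-Nd4l was at 639 and 812 against 2738 and 5456 RPM-n at 1 day and at 1039 and 1179 against 263 and 157 at 3 days. At 3 days their log2 fold changes were −2.02 (SE 0.40) for mt-Nd4 and −2.40 (SE 0.35) for mt-Nd4l. Per length, mt-Nd4l stood at 0.515 to 0.625 times mt-Nd4 in 6 libraries and at 0.431 and 0.481 times in the MI libraries at 3 days.

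mt-Nd1, the membrane subunit beside the ubiquinone site, was at 10351 and 10194 against 29661 and 55870 RPM-n at 1 day and at 11032 and 11959 against 3086 and 1726 at 3 days. mt-Nd2, a proton-pumping membrane subunit, was at 4122 and 4228 against 13551 and 30170 RPM-n at 1 day and at 5232 and 5279 against 1405 and 728 at 3 days. mt-Nd5, another pumping subunit, was at 7042 and 6927 against 21901 and 47771 RPM-n at 1 day and at 8363 and 7820 against 3056 and 1744 at 3 days. In each case the sham libraries lay close together, the MI libraries lay apart, and the groups did not overlap. The log2 fold changes at 1 and 3 days were 2.06 (SE 0.35) and −2.26 (SE 0.35) for mt-Nd1, 2.39 (SE 0.40) and −2.30 (SE 0.40) for mt-Nd2, and 2.32 (SE 0.38) and −1.75 (SE 0.38) for mt-Nd5.

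**Figure D1:**
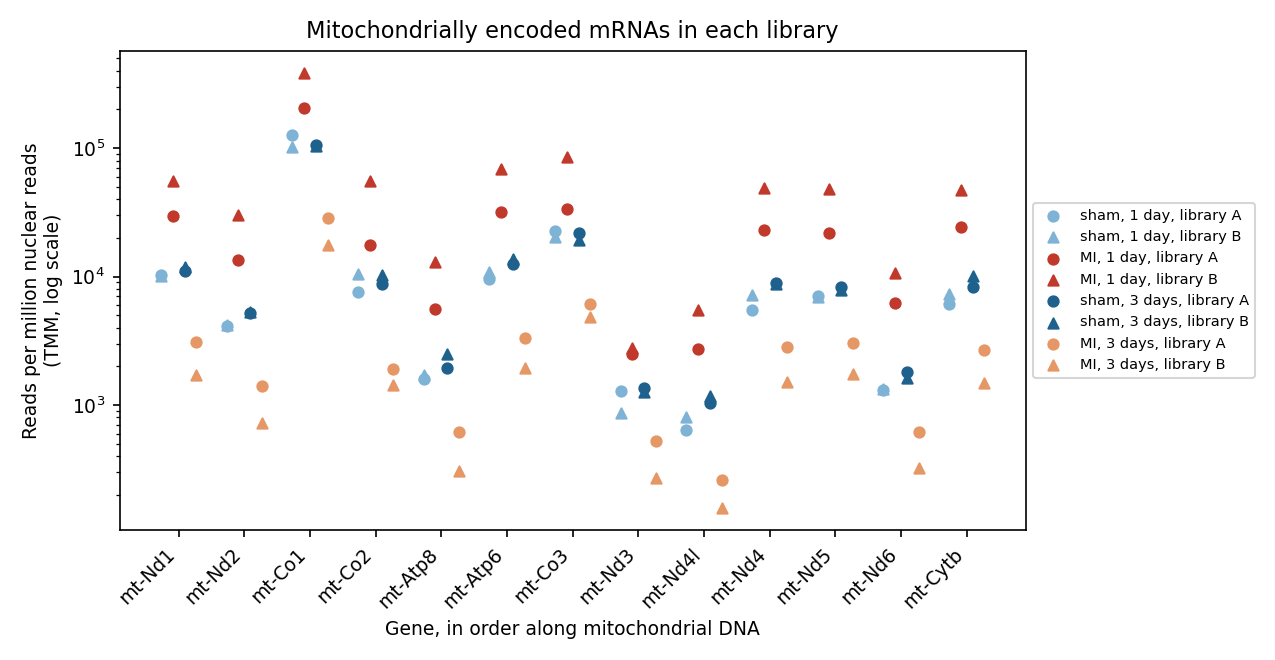
Reads per 10⁶ nuclear reads (log axis) of the 13 mitochondrially encoded genes, in order along mitochondrial DNA; each point is 1 library, colours are groups, circles library A and triangles library B. For every gene both MI libraries at 1 day lie above, and both MI libraries at 3 days below, the sham libraries of the same day.

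As a set, the 13 had a median log2 fold change of 2.32 at 1 day (4.99-fold, range 2.45- to 6.38-fold) and of −2.19 at 3 days (4.55-fold lower, range 3.28- to 5.73-fold). Over all 14590 genes tested the medians were 0.10 and −0.04. By the edgeR quasi-likelihood test, with p-values adjusted over all genes, 13 of 13 were called higher at 1 day, where 20.2% of all genes were called higher and 39.3% in either direction. All 13 were called lower at 3 days, where 28.5% of all genes were called lower and 54.8% in either direction. The libraries did not overlap for 13 of 13 on either day, against 35.2% of all genes with MI above sham at 1 day and 42.2% with MI below sham at 3 days. The difference of the 2 fold changes was called for all 13, against 26.9% of all genes, with a median log2 difference of −4.54. Nothing is read from these counts, since the set was taken up for its share of these reads.

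**Figure D2:**
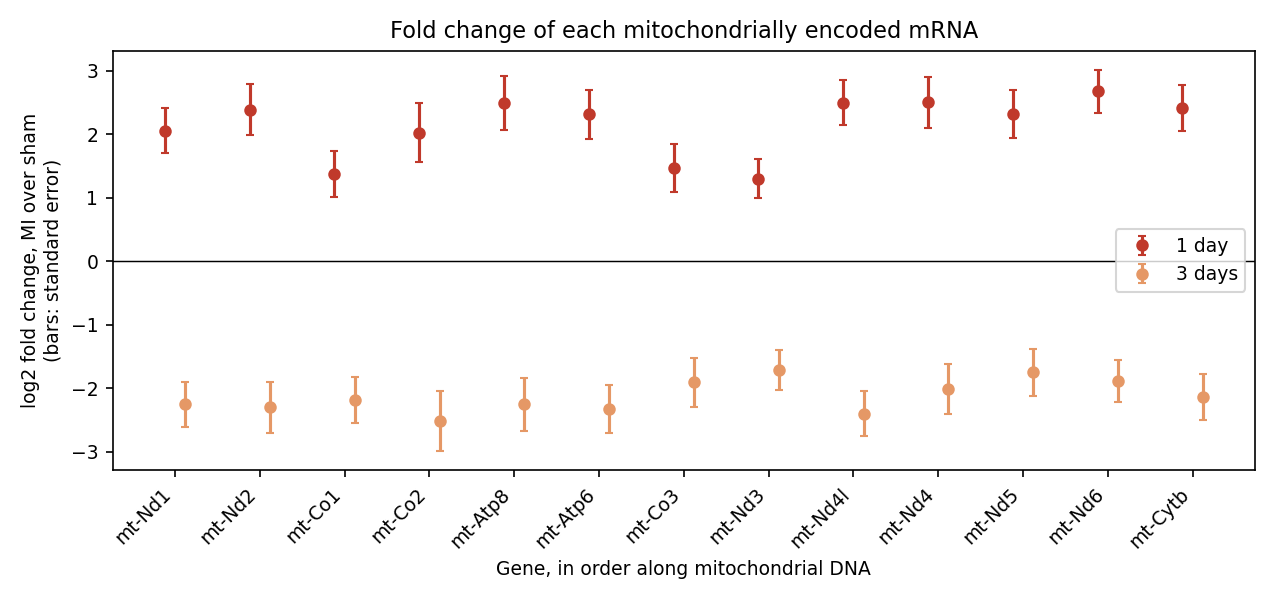
Log2 fold change of MI over sham (vertical axis; bars are SE, 2 libraries in each group) for each mitochondrially encoded gene in order along mitochondrial DNA, at 1 day and 3 days. The day-1 values lie between 1.30 (mt-Nd3) and 2.67 (mt-Nd6), and the day-3 values between −2.52 (mt-Co2) and −1.71 (mt-Nd3).

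The size of the day-1 difference depended on what the reads were counted against, and on which MI library was kept. Per 100 nuclear reads there were 17.7 and 16.1 mitochondrially encoded reads in the sham libraries and 40.3 and 76.5 in the MI libraries at 1 day. Both parts of that ratio moved. As deposited, the members had 1.86 and 1.80 × 10⁶ reads after sham surgery and 2.57 and 3.71 × 10⁶ after MI, while nuclear genes had 10.5 and 11.2 × 10⁶ after sham surgery and 6.39 and 4.85 × 10⁶ after MI. More RNA of the members and less RNA of nuclear genes cannot be told apart in such a ratio. With the counts left unscaled, an alternative added after the data were seen, the median log2 fold change of the 13 was 1.37, all 13 lay above 0, and mt-Co1, mt-Co2, mt-Co3 and mt-Nd3 were not called. The median of all genes was −0.75 without scaling, so that the members stood 2.12 above it, against 2.22 with nuclear scaling. Counted against all transcript reads, the median of the 13 was 1.91 with mt-Nd3 not called, and that of all genes −0.22. Over all genes, nuclear scaling called 2950 higher and 2779 lower at 1 day, all transcript reads 1531 and 3229, and unscaled counts 869 and 5905. Leaving out MI library B at 1 day took the median log2 fold change of the 13 to 1.65, and leaving out MI library A took it to 2.705. The calls of members given here are a description, and nothing is read from them. Without MI library B the complex IV messages had the lowest log2 fold changes of the 13, with 0.84 for mt-Co1, 0.95 for mt-Co2 and 0.63 for mt-Co3. Without sham library A mt-Co1, mt-Co2 and mt-Co3 were not called, and without sham library B mt-Co1, mt-Co3 and mt-Nd3 were not.

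At 3 days each scaling gave one direction for all 13. Per 100 nuclear reads there were 19.8 and 18.6 mitochondrially encoded reads after sham surgery and 6.96 and 4.37 after MI. As deposited, the members had 2.01 and 1.73 × 10⁶ reads after sham surgery and 0.849 and 0.556 × 10⁶ after MI. The median log2 fold change was −1.45 without scaling and −1.63 against all transcript reads, where the medians of all genes were 0.70 and 0.52. Over all genes, nuclear scaling called 3837 higher and 4162 lower at 3 days, all transcript reads 5573 and 2369, and unscaled counts 6185 and 2005. The median of the 13 lay between −1.74 and −2.51 with 1 library left out.

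**Figure D3:**
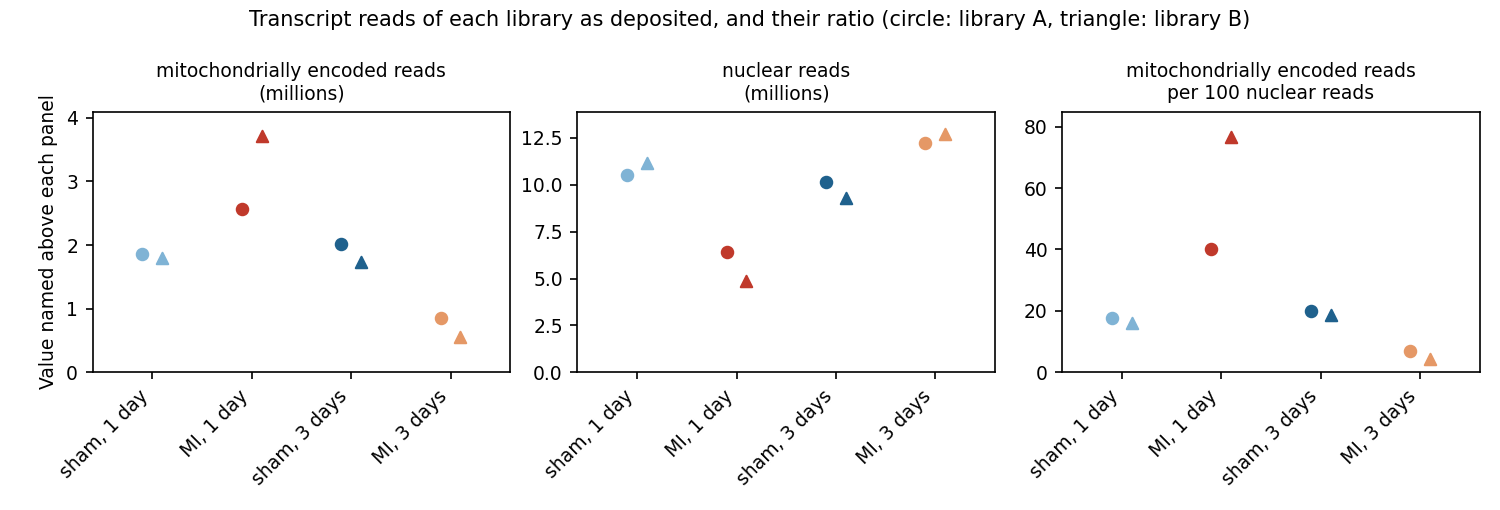
Mitochondrially encoded reads and nuclear reads as deposited (both in multiples of 10⁶), and their ratio per 100 nuclear reads (vertical axes), in each library (points) by group. At 1 day the MI libraries have more mitochondrially encoded reads (2.57 and 3.71 against 1.86 and 1.80) and fewer nuclear reads (6.39 and 4.85 against 10.5 and 11.2) than the sham libraries.

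The 2 MI libraries at 1 day differed from each other more than the sham libraries did. The log2 ratio of library B to library A over the 13 genes had a median of 1.09, from 0.16 for mt-Nd3 to 1.67 for mt-Co2. In the sham groups the same ratio ran from −0.58 to 0.48 at 1 day and from −0.19 to 0.35 at 3 days. In the MI group at 3 days library B was lower for all 13, with a median of −0.84 (−1.02 to −0.33). MI library B at 1 day stood apart in another respect too. Of 1528 chemosensory receptor genes, which heart tissue is not known for, it held a read for 90.3%, against 3.47 to 40.9% in the other 7 libraries. Within that range, sham library B at 1 day held 40.9% and MI library A at 1 day 19.8%, and the remaining libraries held 3.47 to 6.68%. The part of these reads in the values of the members was not tested.

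The order of the messages per length was nearly fixed. Divided by transcript length, mt-Co1 came first in all 8 libraries, mt-Co3 came next in 7 and mt-Atp6 after it in 7. Across the 13 genes the Spearman correlation between libraries was 0.967 to 0.995 within groups (4 pairs) and 0.918 to 0.995 between groups (24 pairs). These genes share precursors, so the values are a description. In reads per kilobase per 10⁶ nuclear reads, mt-Co1 stood at 81692 and 65948 in the sham libraries at 1 day, and the lowest gene of sham library A there, mt-Nd4l, at 2150. The lowest place was held by mt-Nd3 in 3 libraries (sham library B and both MI libraries at 1 day), by mt-Nd4l in 3 (sham library A at 1 day and both MI libraries at 3 days) and by mt-Nd6 in the 2 sham libraries at 3 days.

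Within the set, the mix of messages moved too. Shares of the mitochondrially encoded reads compare the members with each other and do not depend on any nuclear gene or library size, though a fall of one share raises the others. Counting error alone moved a share by at most 0.131 percentage points to either side (95% exact binomial interval). mt-Co1 made up 61.8% and 55.3% of these reads in the sham libraries at 1 day and 49.0% and 45.1% in the MI libraries. At 3 days its share was 53.8% and 52.5% after sham surgery and 51.9% and 51.6% after MI. With 2 libraries a group an exact permutation test cannot give a p under 0.333, so the shares carry no test.

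At 1 day 9 of the 13 shares were higher in both MI libraries than in both sham libraries, those of mt-Co1 and mt-Co3 were lower, and those of mt-Co2 and mt-Nd3 overlapped. For comparison, 68.1% of all genes tested did not overlap in either direction on the nuclear scale. mt-Nd6 moved most in proportion, from 0.643% and 0.725% to 1.50% and 1.24%, a log2 ratio of mean shares of 1.00. mt-Co3 went from 11.2% and 11.1% to 8.02% and 9.95%. With the mt-Co1 reads left out of the denominator, a view added after the data were seen, 8 of the other 12 were still higher without overlap, mt-Co3 was lower, and mt-Nd6 had a log2 ratio of 0.65. The 7 complex I genes together made up 15.99 ± 1.65% of the reads after sham surgery and 23.7 ± 0.297% after MI (SD, n = 2). The 3 complex IV messages made up 74.4 ± 3.25% and 61.4 ± 0.187%. Without mt-Co1 the complex IV messages took 14.9% and 16.8% after sham surgery and 12.2% and 16.4% after MI, which overlapped.

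At 3 days the mix was closer to that of the sham hearts. Both MI libraries were above both sham libraries for 4 shares (mt-Co3, mt-Nd3, mt-Nd5 and mt-Nd6). For mt-Co3 and mt-Nd6 the nearest libraries differed within counting error. Both MI libraries were below both sham libraries for 5 shares (mt-Nd2, mt-Co1, mt-Co2, mt-Atp6 and mt-Nd4l). For comparison, 82.8% of all genes tested did not overlap in either direction on the nuclear scale. mt-Nd3 went from 0.682% and 0.638% after sham surgery to 0.958% and 0.793% after MI. mt-Nd5 went from 4.23% and 3.96% to 5.56% and 5.11%. mt-Co3, lower in share at 1 day, took 11.1% and 9.76% after sham surgery and 11.1% and 14.3% after MI, so that its difference of 2.27 percentage points was 0.695 without MI library B. With the mt-Co1 reads left out of the denominator, 2 of the other 12 shares (mt-Nd3 and mt-Nd5) were higher without overlap, 5 (mt-Nd1, mt-Nd2, mt-Co2, mt-Atp6 and mt-Nd4l) were lower, and mt-Co3 and mt-Nd6 were among the 5 that overlapped. The 7 complex I genes took 19.1 ± 0.110% and 20.2 ± 1.76%, within the spread of the MI libraries.

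**Figure D4:**
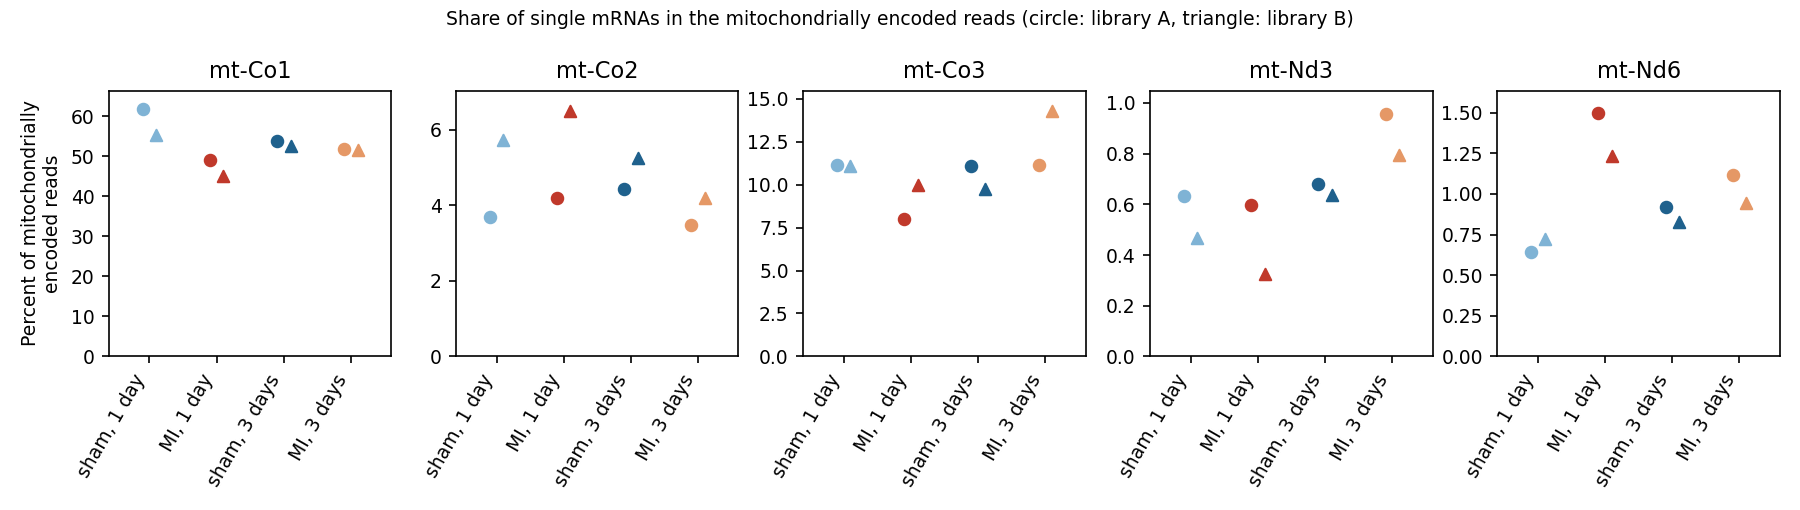
Percent of the mitochondrially encoded reads (vertical axes, each from 0) taken by mt-Co1, mt-Co2, mt-Co3, mt-Nd3 and mt-Nd6 in each library; circles are library A and triangles library B. At 1 day mt-Co1 is lower (49.0% and 45.1% against 61.8% and 55.3%) and mt-Nd6 higher (1.50% and 1.24% against 0.643% and 0.725%) in both MI libraries.

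Ratios per length between single pairs show which members parted. mt-Co1 over mt-Nd6 was 32.3 and 25.6 in the sham libraries at 1 day, 11.0 and 12.3 after MI, 19.7 and 21.3 in the sham libraries at 3 days, and 15.7 and 18.4 after MI. The sham libraries of the 2 days did not overlap in this ratio either. mt-Nd6 over mt-Nd5, its neighbour on the opposite strand, was 0.655 and 0.677 after sham surgery and 1.00 and 0.782 after MI at 1 day, and 0.763 and 0.733 against 0.703 and 0.647 at 3 days. mt-Nd3 over mt-Nd4 was 0.927 and 0.471 in the sham libraries and 0.427 and 0.224 in the MI libraries at 1 day, but 0.605 and 0.570 against 0.736 and 0.707 at 3 days. The 2 sham libraries at 1 day differed in this last ratio by more than the MI libraries did.

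Across the 13 genes, the day-1 log2 fold change was lower for genes with a higher level per length in the sham hearts (Pearson r = −0.559, Spearman rho = −0.566). With position along the DNA the relation at 1 day was r = 0.343 and rho = 0.495, and at 3 days r = 0.492 and rho = 0.522. Transcript length and GC content gave values between −0.356 and 0.269 on both days. The genes share libraries and precursors and the sham level enters the fold change, so these values describe the set only.

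The nuclear genes of the same complexes set these values in context. They were not used to choose the members, but the lists were drawn up with earlier results of these data known. The lists do not hold every nuclear subunit. That of complex IV, for example, holds Cox6a2 and Cox8b but not Cox6a1 or Cox8a. At 1 day, by the edgeR quasi-likelihood test over all genes, 36 of 36 listed nuclear subunits of complex I fell. So did 8 of 9 of complex III, 9 of 12 of complex IV and 15 of 15 of ATP synthase. In counts of nuclear genes here and below, fell and rose mean called lower and called higher. The highest log2 fold changes of the complex III and IV lists at 1 day were −0.32 and −0.26, so the genes not called were also below 0. Over all 14590 genes tested, 2779 were called lower at 1 day. The median log2 fold changes of the nuclear subunits were −0.94, −0.91, −0.85 and −0.87. The mitochondrially encoded members of these complexes had medians of 2.39, 2.41, 1.46 and 2.40, so the 2 genomes' messages for each complex stood on opposite sides of 0. Without sham library A, the median of the nuclear ATP synthase genes at 1 day was −0.91. Without scaling the nuclear medians were −1.67 to −1.79, and the lowest of the 13 members stood at 0.44.

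At 3 days 28.5% of all genes tested were called lower. Of the listed nuclear subunits 36 of 36, 9 of 9, 12 of 12 and 15 of 15 fell, with medians of −2.14, −2.20, −2.11 and −1.98. The mitochondrially encoded medians, −2.02, −2.14, −2.19 and −2.29, lay within 0.317 of them. Without scaling 30 of 36, 7 of 9, 11 of 12 and 11 of 15 fell. Summed over the 72 nuclear subunits, mitochondrially encoded reads were 3.49 and 3.19 times the nuclear subunit reads in the sham libraries at 1 day and 12.2 and 31.2 times in the MI libraries. At 3 days they were 4.09 and 4.11 times after sham surgery and 5.43 and 3.48 times after MI, which overlapped.

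**Figure D5:**
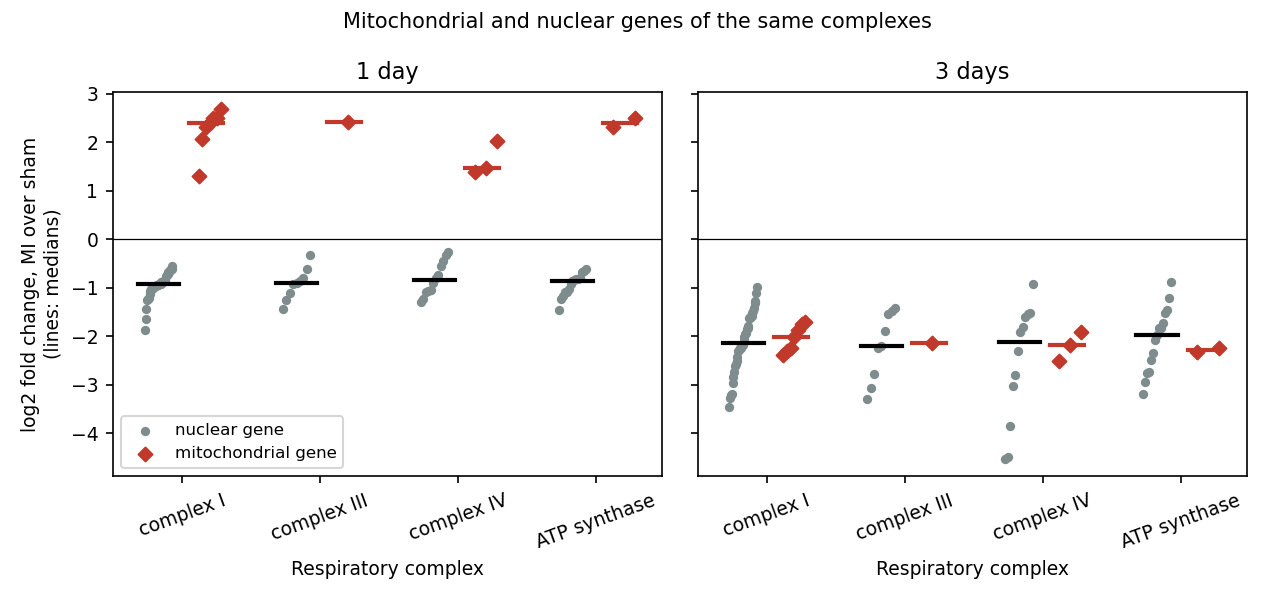
Log2 fold change of MI over sham (vertical axis) of nuclear subunit genes (grey points, black median lines) and mitochondrially encoded genes (red diamonds, red median lines) of complexes I, III, IV and ATP synthase at 1 and 3 days. At 1 day the medians are −0.94 to −0.85 for nuclear genes and 1.46 to 2.41 for mitochondrial genes; at 3 days both lie between −2.29 and −1.98.

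Of the genes that copy and transcribe mitochondrial DNA, 20 were tested. Of these, 9 fell and 11 did not pass at 1 day (median log2 fold change −0.48), and 10 fell and 1 rose at 3 days (−0.65). Over all 14590 genes tested, 39.3% were called at 1 day (2779 genes lower) and 54.8% at 3 days (28.5% lower). The calls of this list in either direction lie near those shares, and nothing is read from them. The shares also stand beside the lists below. Polrmt, the mitochondrial RNA polymerase, fell from 37.3 ± 7.91 to 12.7 ± 3.84 RPM-n at 1 day (log2 fold change −1.55, SE 0.26, edgeR adjusted p = 0.00239) and from 28.1 ± 2.70 to 8.04 ± 0.439 at 3 days (−1.80, SE 0.26, edgeR adjusted p = 0.000383; SD, n = 2). Mterf2, of a family of factors that bind mitochondrial DNA, fell from 31.4 ± 4.79 to 11.3 ± 4.71 RPM-n at 1 day. Twnk, the helicase that opens the DNA for copying, fell from 38.8 ± 7.10 to 7.55 ± 0.426 RPM-n at 3 days. At 3 days without scaling, 5 of this list rose, 3 fell and the median was 0.09. The median of all genes was 0.70 there. Relative to the median of all genes, the list stood at −0.61 both without scaling and with nuclear scaling. Against all transcript reads 3 rose and 7 fell.

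Genes that process, modify, stabilise or degrade mitochondrial RNA numbered 31 tested of 33. At 1 day 16 fell and 3 rose (median −0.59), and at 3 days 19 fell and 5 rose (−0.90). Lrpprc, whose product holds mitochondrial messages stable, fell from 391 ± 25.9 to 70.9 ± 9.37 RPM-n at 3 days (log2 fold change −2.46, SE 0.17, edgeR adjusted p = 6.43e-06). Fastk, of a family of mitochondrial RNA-binding proteins, fell from 209 ± 30.9 to 32.5 ± 0.590 RPM-n at 3 days. Among genes of the list with a mean of at least 5 RPM-n, the deepest falls at 1 day were in Tfb1m, from 12.6 ± 0.298 to 2.90 ± 1.81 RPM-n, and Mrm1, from 28.0 ± 2.48 to 8.86 ± 2.89 RPM-n, both methyltransferases of mitochondrial rRNA. The genes that rose at 1 day, named after their values were seen, were Pde12, Mtpap and Trmt10c. Pde12 removes poly(A) tails in mitochondria and rose from 16.1 ± 1.22 to 42.5 ± 12.6 RPM-n, whereas Mtpap, which adds them, rose from 32.7 ± 0.537 to 50.6 ± 0.422. Without scaling 23 of the list fell at 1 day and these 3 were not called, and at 3 days 11 fell and 6 rose. The called number at 1 day, 19, dropped to 9 when sham library A was left out and to 11 when B was, and the 24 at 3 days became 15 without MI library B.

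Of 13 factors for translation in mitochondria, 10 fell at 1 day (median −0.79) and 11 at 3 days (−1.31), and the others did not pass. Taco1, needed for translation of mt-Co1, fell from 75.5 ± 6.35 to 21.3 ± 3.57 RPM-n at 1 day (log2 fold change −1.82, SE 0.19, edgeR adjusted p = 0.000347) and from 62.0 ± 2.87 to 11.7 ± 0.937 at 3 days. Tufm, the elongation factor that delivers tRNAs, fell from 239 ± 9.07 to 79.0 ± 22.2 RPM-n at 1 day. Gfm1, an elongation factor of translocation, fell from 228 ± 10.7 to 43.4 ± 1.33 RPM-n at 3 days. Without scaling 12 fell at 1 day but 5 at 3 days, and against all transcript reads 7 fell at 3 days. With sham library A left out the median at 1 day was −0.87.

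Regulators of mitochondrial biogenesis fell furthest. Of 11 tested, 6 fell and 2 rose at 1 day (median −1.25), and 7 fell and 1 rose at 3 days (−3.84). Perm1, a muscle factor that acts with the PGC-1 coactivators, fell from 485 ± 69.8 to 106 ± 24.5 RPM-n at 1 day and from 394 ± 70.6 to 11.3 ± 2.48 at 3 days (log2 fold change −5.12, SE 0.28, edgeR adjusted p = 2.3e-06). Esrra, a nuclear receptor of energy metabolism, fell from 200 ± 27.2 to 43.6 ± 28.8 RPM-n at 1 day. Ppara, a receptor that drives fatty acid oxidation, fell from 64.6 ± 23.8 to 2.16 ± 0.407 RPM-n at 3 days. The rises at 1 day, named after their values were seen, were those of Pprc1, a coactivator of the PGC-1 family, from 11.9 ± 0.493 to 38.0 ± 9.79 RPM-n, and of Nrf1, a transcription factor for respiratory genes, from 21.8 ± 3.51 to 35.0 ± 2.86. Without scaling neither was called at 1 day, and with either sham library left out 1 of them was.

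At 1 day, then, the members were higher in the libraries in which Polrmt, Mterf2, Taco1 and Tufm were lower. At 3 days the members and these genes were lower together. These genes were named as the largest called changes of their lists at 1 day, so nothing is read from their direction. Of the 2 lists they come from, 11 of 20 and 3 of 13 genes did not pass at 1 day. The named genes Pde12, Mtpap, Trmt10c, Pprc1 and Nrf1 were higher at 1 day. At 3 days Pde12 and Pprc1 were still higher (log2 fold changes of 0.70 and 0.81). Nrf1 and Trmt10c (0.45 and 0.26) were not called then, and Mtpap was lower (−0.72). Levels of cell type markers moved with the groups as well, though fewer cells of a type and less RNA per cell cannot be told apart. The summed level of 9 cardiomyocyte markers was 154760 to 177070 RPM-n after sham surgery and 99338 to 109740 after MI at 1 day, and 110420 to 173560 against 6599 to 6665 at 3 days. Neutrophil markers (8) went from 136 to 187 RPM-n to 991 to 2031 at 1 day and from 108 to 199 to 368 to 668 at 3 days. Macrophage markers (7 of 8 in the tables) went from 759 to 1449 to 5703 to 6489 at 3 days, and fibroblast markers (7) from 2100 to 4076 to 12578 to 12943. At 1 day these were at 465 to 620 and 1506 to 1702 RPM-n after MI, below the sham libraries. Endothelial markers (5) were at 694 to 755 RPM-n after sham surgery and 967 to 1073 after MI at 1 day, and red blood cell markers (5) at 3080 to 3794 and 1627 to 2626. At 3 days the groups overlapped for both, at 597 to 712 against 631 to 764 and at 2570 to 4332 against 2467 to 5208. No marker was at 0 in any library. The part of cell makeup in the values of the members was not tested. Relative to the cardiomyocyte markers, mitochondrially encoded reads were 1.15 and 1.19 times as many in the sham libraries at 1 day, 4.20 and 7.84 times after MI, 1.79 and 1.14 times in the sham libraries at 3 days, and 8.33 and 5.11 times after MI. On that ratio the MI libraries were above the sham libraries of both days. At 3 days the 72 nuclear subunits also stood higher after MI relative to these markers. Their summed level was 48347 and 47982 RPM-n after sham surgery and 10112 and 9782.5 after MI, a smaller fall than that of the marker sum. The rise of the ratio at 3 days is thus not particular to the members.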

How the data were processed

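Total RNA of 8 left ventricles was depleted of rRNA and sequenced in pairs, per the labels' protocols. The submitters' processing notes name build mm10 and, with no role or order, TopHat2 2.0.14, Bowtie2 2.2.5, HTSeq, SAMtools 0.1.2, DESeq2 and FastQC. The sources used here do not say which software, annotation or strand setting made the transcript tables. These tables, 1 for each day, hold counts of total reads per transcript for each library, with other measures that were not used, per the file headers.

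Total read counts were summed to genes. Genes with low counts were removed by filterByExpr, which left 14590 of 31165. The groups of all 8 libraries entered 1 robust quasi-likelihood fit (edgeR 4.0.16, R 4.3.3), and nuclear genes alone gave the library sizes and the TMM factors. Tests were 2-sided, with Benjamini-Hochberg adjustment over all genes and a threshold of 0.05. The SE is the log2 fold change divided by the square root of F. The fit was tested on simulated counts. The mice are biological replicates per the series text, 2 in each group, which limits the precision; binomial intervals cover counting error only.

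Members and gene lists were chosen with earlier results of these data known. Of each list of mitochondrial DNA expression, the 2 called genes with the largest change at each day and a mean of at least 5 CPM were named, and respiratory subunits were given by counts and medians. DESeq2 1.42.0 and limma 3.58.1 were alternatives. The deposited tables of gene counts and of test results hold no member and were not used.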

Additional observations from a re-analysis of the deposited data

Results flagged for a closer look

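The fold changes at the 2 days had opposite signs for all 13 members. These values come from the groups and reads for which the set was taken up, so they are a description and no test of them is drawn on. The log2 fold change at 3 days minus that at 1 day was −4.31 for mt-Nd1, −4.69 for mt-Nd2, −3.01 for mt-Nd3, −4.52 for mt-Nd4, −4.90 for mt-Nd4l, −4.07 for mt-Nd5 and −4.56 for mt-Nd6 in complex I. It was −4.55 for mt-Cytb (complex III), −3.56 for mt-Co1, −4.54 for mt-Co2 and −3.37 for mt-Co3 (complex IV), −4.64 for mt-Atp6 and −4.75 for mt-Atp8 (ATP synthase).

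The share of all transcript reads that came from the 13 genes was higher in both MI libraries at 1 day, by 21.56 percentage points of the means (14.24 without MI library B and 28.87 without MI library A), and lower in both at 3 days, by −10.77 percentage points. The difference between the days was not tested for this share.

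Within the mitochondrially encoded reads, 4 members moved in opposite directions at the 2 days in every MI library, and these differences were not tested. mt-Nd2 differed by 1.22 percentage points at 1 day and −0.31 at 3 days, mt-Atp6 by 2.57 and −0.82, mt-Nd4l by 0.27 and −0.091, and mt-Co3 by −2.12 and 2.27. With 1 library left out, the day-3 differences kept their sign, at −0.103 to −0.525 for mt-Nd2, −0.512 to −1.13 for mt-Atp6, −0.055 to −0.127 for mt-Nd4l and 0.695 to 3.85 for mt-Co3. That of mt-Co3 was lowest without MI library B, and its day-1 difference was −1.16 without MI library A. At 3 days mt-Co3 took 11.13% in MI library A and 11.10% in sham library A, which differed within counting error. With the mt-Co1 reads left out of the denominator, the groups overlapped for mt-Co3 at 3 days.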

How the results depend on the processing

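The alternatives were other scalings of the libraries, DESeq2, limma-voom, no filter, the libraries of 1 day alone and each library left out. The fold changes of the 13 members kept their direction under every alternative run. Calls of the members are a description, and nothing is read from them, since the set was taken up for its share of these reads. With no library left out, all 13 were called at 3 days and, where it could be fitted, for the difference of the days. At 1 day 13 were called except against all transcript reads (12), with unscaled counts (9) and without either sham library of that day (10 each). The number of genes called at 1 day, 5729, was 2678 at the lowest (without sham library A) and 7819 at the highest (without MI library A) with 1 library left out. The number called for the difference, 3922, was 7597 with unscaled counts and 1815 to 5327 with 1 library left out. Among the 8 nuclear lists, the 5 rises at 1 day became 2 against all transcript reads, with no filter or with the day's libraries alone, and 2 to 6 with 1 library left out. With unscaled counts edgeR called 0 of them, and 1 had an unadjusted p under 0.05; DESeq2 and limma-voom, scaled, called 5 each. The 7 rises at 3 days became 11 against nuclear or all transcript reads without TMM, 13 with unscaled counts, and 2 to 8 with 1 library left out. The log2 ratio of mt-Nd6 shares at 1 day, 1.00, was 0.65 without mt-Co1 in the denominator. The cause of these changes was not tested. Unscaled counts and the denominator without mt-Co1 were chosen after seeing the data.

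No paired analysis was possible because the columns carry no replicate number. Unique reads and RPKM were meant to be tried and were not run, since only 1 measure was used from columns that name a group but no mouse. Library sizes from the gene count tables were not run, since both sham columns at 1 day carry one name there, and the composition without rRNA members was not run, since the tables hold no such member. Depth was not the limit for the members, each of which had at least 2561 reads in every library.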
